A study of Mus musculus with 9 samples.

Results

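The deposited table holds 9 sciatic nerve libraries from mice aged 21 days, and 3 of the 9 carried far more RNA of neuronal genes than the other 6. The 3 nerves were picked by a value of Prph, the gene of the neuronal intermediate filament peripherin, above 100 in normalized TPM (transcript abundances adjusted for transcript length), and the 6 nerves below 100 are called low here. Nerves are numbered 1 to 3 within a genotype, each from another mouse. The high nerves are control nerve 2, cHet nerve 1 and cKO nerve 3, so that each genotype holds 1 high and 2 low nerves. The lowest value inside the limit was 228 in cKO nerve 3, and the highest outside it was 42.2 in cHet nerve 3. Control mice carried Tardbp fl/fl and no Cre, cHet mice Cnp-Cre and Tardbp fl/+, and cKO mice Cnp-Cre and Tardbp fl/fl, all on a C57BL6 background with 2 females and 1 male per genotype. The study used Cnp-Cre to delete Tardbp, the gene of the RNA-binding protein TDP-43, in Schwann cells and oligodendrocytes. Whether the neurons of these mice keep Tardbp was not measured here. Genotypes were read from the sample titles, and the genotype fields of cHet nerve 1, cKO nerve 1 and cKO nerve 2 differ from them, which touches the high cHet nerve. Tardbp was at 103 and 94.2 in cKO nerves 1 and 2, beside 103 in cKO nerve 3 and 177 to 186 in the cHet nerves. Cnp, whose gene carries the Cre, was at 640.5 in cHet nerve 1, beside 803 and 849 in the other cHet nerves and 1168 to 1700.5 in the control nerves. Tardbp in cKO nerves 1 and 2 and Cnp in cHet nerve 1 thus lay with the group of their titles. Each of these nerves rests on 1 gene, since the other gene overlapped between the 2 groups in question. Tardbp averaged 181 ± 4.90 (SD, n = 3) in cHet and 199 ± 16.5 (SD, n = 3) in control. Cnp averaged 617 ± 160 (SD, n = 3) in cKO and 764 ± 110 (SD, n = 3) in cHet. The high control and cHet nerves came from females and the high cKO nerve from a male. Nothing in the labels separates the 3 high nerves from the others by dissection, extraction or run.

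The cell bodies of the neurons that form the sciatic nerve lie outside it, sensory neurons in the dorsal root ganglia and motor neurons in the spinal cord. The nerve itself holds their axons with Schwann cells, fibroblasts, vessels, perineurium and fat, and axons carry a limited set of messenger RNAs away from the cell body. Dorsal root ganglia hold several kinds of sensory neuron. Nociceptors report heat, chemicals and injury and often make neuropeptides, while mechanoreceptors and proprioceptors report touch and limb position through larger, myelinated axons. Satellite glia wrap the cell bodies in the ganglion. In whole tissue, fewer cells of a type and less RNA per cell cannot be told apart.

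The 6 neuronal marker genes were high together in the same 3 nerves, with control nerve 2 above cHet nerve 1 and cKO nerve 3, which lay close to each other. Prph (ENSMUSG00000023484, chr15:99055174-99058978 on the plus strand of GRCm38) stood at 485, 238 and 228 in the high nerves of control, cHet and cKO, and at 13.8 to 42.2 with a median of 24.9 in the low nerves. Its high mean of 317 ± 146 (SD, n = 3 nerves) was 12.1-fold its low mean of 26.1 ± 12.6 (SD, n = 6). Nefl, the light neurofilament subunit, was at 661, 208 and 249 in the high nerves and at 9.64 to 55.2 in the low nerves. Each high nerve exceeded each low nerve in both genes. Nefm, the medium subunit, was at 581, 159.7 and 208 against 11.01 to 51.8, and Nefh, the heavy subunit of large myelinated axons, at 284, 73.2 and 97.0 against 14.7 to 34.5. The gene span of Nefm in the annotation covers that of Nefl on the other strand, and strand use in the counting is not given, so that reads in the overlap may be split between them. Tubb3, the neuronal beta tubulin, reached 448, 203 and 200.3 against 8.55 to 44.9. Stmn2, a regulator of axonal microtubules, reached 254, 133 and 130.2 against 9.95 to 30.5. None of the 6 genes overlapped between high and low nerves, beside 8.55% of all genes tested that lay above all low nerves in all high nerves. For Prph the rule itself fixed this. Since Prph chose the nerves and the other genes were measured in the same libraries, the contrast of high with low is a description and carries no test.

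**Figure D1:**
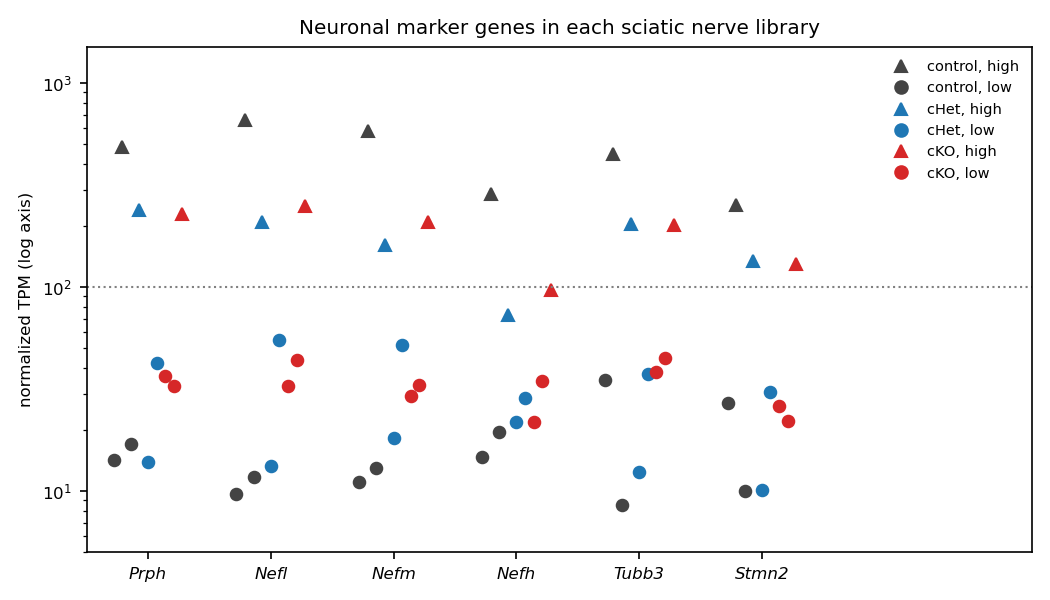
Normalized TPM on a log axis of 6 neuronal marker genes in each of 9 sciatic nerve libraries, with triangles for high nerves, circles for low nerves and colours for genotype. The dotted line marks the limit of 100 that was applied to Prph, which the high nerves pass at 228 to 485 and the low nerves miss at 13.8 to 42.2.

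Among the low nerves the same genes were not level. Prph was at 42.2 in cHet nerve 3, 36.8 in cKO nerve 1 and 32.7 in cKO nerve 2, and at 14.2 in control nerve 1, 17.0 in control nerve 3 and 13.8 in cHet nerve 2. The sum of the 6 markers ran from 79.5 in control nerve 3 to 246 in cHet nerve 3, against 1015 to 2713 in the high nerves. Neuronal RNA thus varied within the low nerves as well, though each low sum stayed under the lowest high sum.

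The difference reached well beyond these markers. For each genotype the high nerve was compared with the mean of its 2 low nerves on the scale log2(value + 0.5), which understates the fold of low genes, over 15014 genes whose mean over the 9 libraries reached 1. A difference of at least 1, a doubling, in all 3 genotypes was found for 523 genes, 3.48% of those tested. A difference of -1 or below in all 3 was found for 3 genes, 0.02%. Of the 523 higher genes, 174 differed by at least 2 and 20 by at least 3 in every genotype, and 495 lay above all 6 low nerves in all 3 high nerves while 28 overlapped a low nerve. Over all 15014 genes, 8.55% lay above all low nerves in all high nerves and 1.21% below them. The median difference of the 523 genes was 2.96 in control, 1.98 in cHet and 1.83 in cKO, and that of all genes was 0.03, 0.06 and 0.01. Shifts shared by all 3 genotypes were therefore nearly all upward. The 523 genes held 1.83% of the summed values of control nerve 2, 0.982% of cHet nerve 1 and 0.939% of cKO nerve 3, against 0.162% to 0.271% in the low nerves. Of the 523, 312 also reached a mean of 1 over the 6 low nerves, and the others passed the minimum only through the high nerves, where they had to be higher. They include 25 predicted genes or genes without a symbol, and 200 had a mean below 3, where single values are coarse.

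Control nerve 2 was the most extreme nerve, and the other high nerves held a similar fraction of its excess across most genes. The largest of the 3 differences fell in control for 469 of the 523 genes (89.7%). The excess of the high nerve over its low nerves in cHet was a median of 0.471 of that in control (quartiles 0.374 and 0.595), and in cKO a median of 0.446 (quartiles 0.367 and 0.552). Some genes left this pattern. Cacna1b, the pore subunit of the N-type calcium channel of nerve terminals, was at 10.1, 9.04 and 8.51 in the high nerves of control, cHet and cKO, against 0.313 to 0.791 in the low nerves. Nppb, a natriuretic peptide of itch-related neurons, was at 7.11, 6.78 and 6.96 against 0 to 0.760. These genes were at nearly the same level in the 3 high nerves, where Prph differed by a factor above 2 between control and cKO.

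The 25 genes with the largest difference in their weakest genotype include genes of neuropeptides, sodium channels and transcription factors known from sensory neurons. They were Snurf, Calcb, Scn10a, Phf24, Isl2, Scn11a, Avil, Tmem233, Ppp1r1c, Fgf12, Pou4f1, Scg2, Pirt, Prdm12, Fgf13, Grik1, Rnf112, Tac1, Cacna1b, Calca, Map7d2, Cadps, Tlx3, Rgs4 and Elavl4. All 25 lay above all 6 low nerves in all 3 high nerves, as their selection favours. Avil, an actin-binding protein enriched in sensory neurons, was at 95.1, 42.2 and 48.5 in the high nerves of control, cHet and cKO and at 1.18 to 6.52 in the low nerves. Pirt, a membrane protein that modulates heat- and cold-sensing channels, was at 62.7, 33.3 and 34.4 against 0.565 to 5.49. Fgf13, an intracellular partner of sodium channels, was at 79.2, 49.9 and 53.3 against 1.94 to 8.88. Phf24 was at 151, 83.6 and 84.6 against 1.498 to 13.2, and Rgs4, which dampens G protein signals, at 113, 76.7 and 71.9 against 3.22 to 12.4. For each of these the gap between the lowest high and the highest low nerve was wider than the spread among the 6 low nerves. Snurf was listed at 0 in 4 low nerves and at 25.5 in cHet nerve 3. It lies within the span of Snrpn on chromosome 7, the transcripts share sequence, and its value is uncertain for that reason. Snrpn itself was at 175, 93.6 and 95.7 in the high nerves against 32.7 to 44.6.

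**Figure D2:**
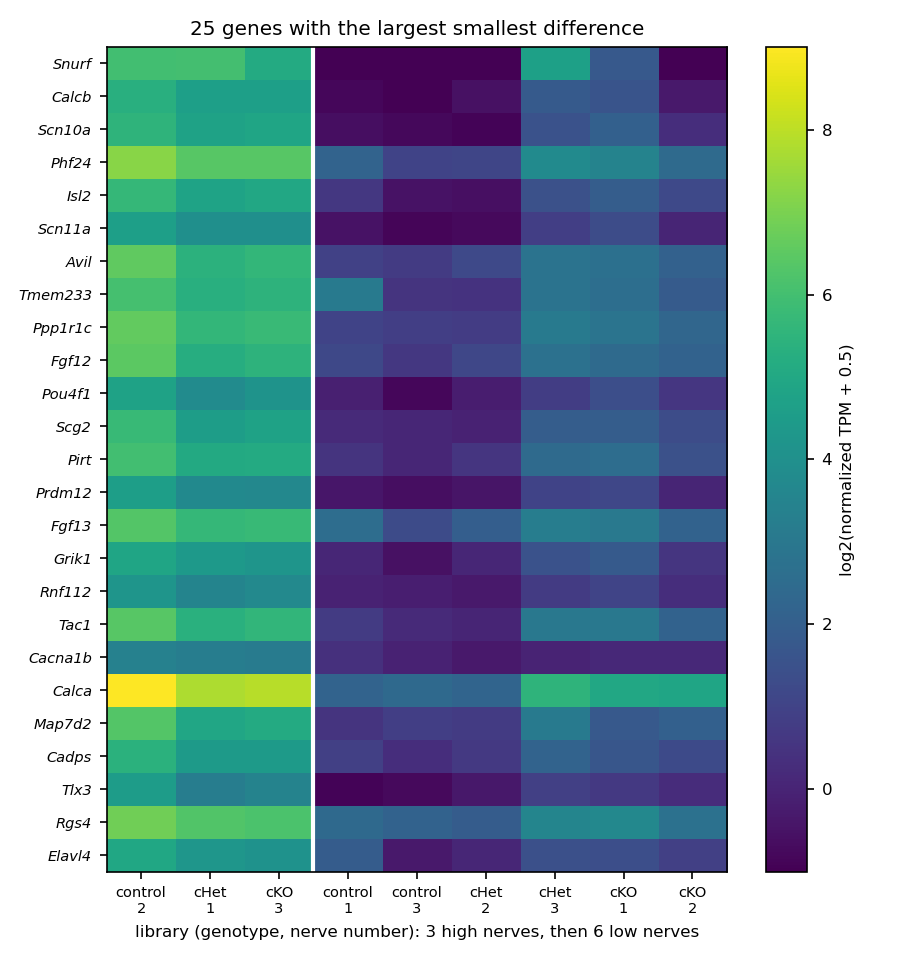
Levels as log2(normalized TPM + 0.5) of the 25 genes with the largest difference in their weakest genotype, by library, with the 3 high nerves left of the white line and the 6 low nerves right of it. Calca is brightest at 513 normalized TPM in control nerve 2, and among the low nerves cHet nerve 3 and cKO nerves 1 and 2 show more of most of these genes than control nerves 1 and 3 and cHet nerve 2.

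Genes of nociceptors formed the list with the largest median difference, a rank from which nothing is read. Of 16 such genes 15 were tested, 13 were higher by at least 1 in all 3 genotypes and all 15 lay above every low nerve, beside 3.48% and 8.55% of all genes. Nothing is read from these shares or from the size of the median either. Only 9 of the 15 reached the minimum mean over the low nerves, and the others passed it through the high nerves. The list's median difference was 4.96 in control, 3.47 in cHet and 2.78 in cKO. Calca, which encodes the neuropeptide CGRP, was at 513, 219 and 244 in the high nerves of control, cHet and cKO and at 4.02 to 44.8 with a median of 16.8 in the low nerves. Tac1, the precursor of substance P, was at 84.7, 39.9 and 47.6 against 0.528 to 7.56. Tac1 differed by 5.94, 3.81 and 3.01, and both peptide genes were far above every low nerve in each high nerve. Scn10a, the tetrodotoxin-resistant sodium channel Nav1.8 of nociceptors, was at 44.8, 26.3 and 29.3 against 0.0284 to 3.64, and its relative Scn11a at 24.7, 15.2 and 15.2 against 0.0518 to 2.02. Mrgprd, a receptor of non-peptidergic nociceptors, was at 14.4, 9.80 and 8.24 against 0 to 1.51. The channels for heat and cold, Trpv1 and Trpm8, were lower in level, at 7.41 to 14.2 and 2.04 to 4.50 in the high nerves, against 1.71 to 3.11 and 0 to 0.420. The list thus covered peptidergic and non-peptidergic genes alike. Gfra3 and Sst missed the limit of 1 in cHet (0.91) and in cKO (0.90), and Trpa1 fell below the minimum mean.

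Some transcription factors that specify sensory neurons were higher in the same nerves. Of 14 such genes 10 were tested. Of these, 5 were higher in all 3 genotypes and 6 lay above all low nerves, beside 3.48% and 8.55% of all genes. Nothing is read from these shares, since only 6 of the 10 reached the minimum mean over the low nerves. Pou4f1, the sensory homeodomain factor Brn3a, was at 26.4, 13.6 and 17.1 in the high nerves of control, cHet and cKO and at 0.0698 to 2.18 in the low nerves. Isl1, its partner factor, was at 19.6, 10.2 and 8.35 against 0.110 to 1.91, and Tlx3, a factor of nociceptor and itch lineages, at 22.8, 8.90 and 10.6 against 0.0351 to 1.34. Drgx, needed for nociceptor wiring to the spinal cord, was at 13.3, 8.26 and 7.35 against 0.153 to 1.52. Prdm12, a chromatin regulator required for nociceptors that was not on the list, was at 24.0, 12.9 and 12.2 against 0.150 to 1.68. The other factors of the list that were tested did not pass in all 3 genotypes, and Runx1, which sets non-peptidergic identity, came nearest at differences of 1.62, 1.36 and 0.87. Maf, which Schwann cells also express, was at 87.9, 87.7 and 115 in the high nerves within or below the low range of 99.1 to 125.

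Genes of touch and position sense were mixed. Of 13 such genes 11 were tested and 4 were higher in all 3 genotypes, beside 3.48% of all genes. The list median was 1.03, 0.59 and 0.62 in control, cHet and cKO. Nothing is read from that share, since only 8 of the 11 reached the minimum mean over the low nerves. Slc17a7, the vesicular glutamate transporter, was at 26.2, 6.02 and 6.72 in the high nerves and at 0.282 to 1.48 in the low nerves. Ret, a receptor of the GDNF family, was at 50.2, 37.1 and 33.5 against 5.28 to 13.6. Calb1 and Tafa4 were the other genes of this list to pass, at 3.10 to 9.71 and 3.802 to 6.56 in the high nerves against 0.271 to 1.24 and 0 to 0.882. Ntrk3, the neurotrophin-3 receptor that non-neuronal cells of nerve also express, was at 45.0, 45.4 and 32.6 against 25.4 to 50.5 and overlapped. Pvalb, a calcium buffer of proprioceptors and of fast muscle, was at 2146 in control nerve 1 and 1175 in cKO nerve 3 and at 9.35 to 92.0 in the other 7 nerves, as skeletal muscle genes were.

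Most listed genes of motor, sympathetic and inhibitory spinal neurons had means below 1, while Isl2, Ache and Th were higher in the high nerves. Chat, the enzyme of acetylcholine synthesis in motor neurons, was listed at 0 in the high control and cKO nerves and at 0.0818 in the high cHet nerve, and at 0 to 0.203 in the low nerves. Of 9 motor neuron genes 7 had a mean below 1. The other 2 were Isl2, which sensory neurons also express, at 50.6, 27.5 and 31.2 against 0.165 to 3.32, and Ache, at 18.4, 7.37 and 5.90 against 0.923 to 3.59. The summed motor list was at 35.7 to 70.6 in the high nerves and at 1.57 to 6.38 in the low nerves, nearly all of it from Isl2 and Ache. Of 11 sympathetic genes 3 were tested and 1 was higher in all 3 genotypes, beside 3.48% of all genes. It was Th, the first enzyme of catecholamine synthesis, at 11.4, 8.28 and 10.96 against 0.156 to 1.498. Nothing is read from that share, since only 2 of the 3 reached the minimum mean over the low nerves. Dbh, the enzyme of noradrenaline synthesis, was at 0.136, 0.0899 and 0.0210 in the high nerves and at 0.0368 to 1.48 in the low nerves. Th is also a known marker of a class of touch-sensing sensory neurons. Of 7 inhibitory spinal cord genes 1 was tested, Gad1, and it was not higher in all 3.

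The promoters of 4 of these genes are shown because the genes moved together and 3 of them share a cAMP response element, the motif TGACGTCA, printed in capitals. They are Isl2, Scg2 and Th, the first 3 higher genes by difference whose promoter holds it, and Prph, the gene of the rule, which lacks it. Each window runs from 250 bases before the RefSeq start to 50 after it, on the strand of the gene, in GRCm38.p6. Isl2 lies on the plus strand at chr9:55540899-55541198 with the motif starting at -11, and this start is inside the gene span that the GENCODE annotation gives. Scg2 lies on the minus strand at chr1:79439977-79440276 with the motif at -68, Th on the minus strand at chr7:142899946-142900245 with the motif at -45, and Prph on the plus strand at chr15:99054924-99055223.
Isl2: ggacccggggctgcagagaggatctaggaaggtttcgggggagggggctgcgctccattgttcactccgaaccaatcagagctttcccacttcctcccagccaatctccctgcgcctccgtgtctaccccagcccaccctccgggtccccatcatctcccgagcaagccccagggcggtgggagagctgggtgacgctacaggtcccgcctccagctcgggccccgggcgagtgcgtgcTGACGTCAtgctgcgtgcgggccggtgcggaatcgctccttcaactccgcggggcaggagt
Scg2: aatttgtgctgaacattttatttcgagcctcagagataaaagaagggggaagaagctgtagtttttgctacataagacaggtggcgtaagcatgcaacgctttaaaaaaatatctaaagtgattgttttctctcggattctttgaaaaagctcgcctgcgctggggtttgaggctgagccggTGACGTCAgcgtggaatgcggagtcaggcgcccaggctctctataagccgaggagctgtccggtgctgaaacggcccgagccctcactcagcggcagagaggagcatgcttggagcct
Th: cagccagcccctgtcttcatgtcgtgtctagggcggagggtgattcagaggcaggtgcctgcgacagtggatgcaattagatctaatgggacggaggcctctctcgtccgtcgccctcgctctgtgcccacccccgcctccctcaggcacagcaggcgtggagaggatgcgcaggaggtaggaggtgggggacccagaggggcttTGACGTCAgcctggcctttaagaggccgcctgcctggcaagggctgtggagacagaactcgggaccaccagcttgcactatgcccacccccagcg
Prph: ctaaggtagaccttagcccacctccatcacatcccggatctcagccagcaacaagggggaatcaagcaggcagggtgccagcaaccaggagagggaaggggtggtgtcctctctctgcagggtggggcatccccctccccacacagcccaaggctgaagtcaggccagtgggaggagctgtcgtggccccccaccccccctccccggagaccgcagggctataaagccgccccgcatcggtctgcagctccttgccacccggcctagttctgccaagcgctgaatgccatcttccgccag
Scg2 and Th are textbook examples of genes with this element, which the factor CREB binds. Both strands were searched for 11 motifs. They were TTCAGCACC, CAGCACC and GGACAGCG of the neuronal repressor REST, ATAATTAAT and ATTAAT of Brn3 factors, TAATTA of homeodomain factors, CACGTG as well as CAGCTG and CATCTG of helix-loop-helix factors, TGACGTCA, and the TATA box TATAAA. Some overlap, since CAGCACC is part of TTCAGCACC and ATTAAT of ATAATTAAT. Besides TGACGTCA, the promoter of Scg2 held TTCAGCACC with CAGCACC inside it, and that of Prph held TATAAA, while Isl2 and Th held none of the others. Of 32851 RefSeq promoters 1.79% held TGACGTCA, 0.371% TTCAGCACC and 13.6% TATAAA, and the other motifs were held by 0.274% to 17.2%. A match is a stretch of letters and not a measured site. A promoter was found for 370 of the 523 higher genes (70.7%), too few for a count of motifs over the set.

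Genes of the neuronal cytoskeleton, of vesicle release and of neuronal RNA binding were higher in the 3 nerves in the majority of their lists. For the cytoskeleton 10 of 15 genes were higher in all 3 genotypes, beside 3.48% of all genes. That list holds the 6 marker genes, among them Prph, which chose the nerves, and all 6 are among the 10. The others were Stmn3, Gap43, Uchl1 and Rtn1. Nothing is read from that share or from the list medians for this reason. The list medians were 3.18, 2.34 and 1.67 in control, cHet and cKO. Uchl1, an abundant ubiquitin hydrolase of neurons, was at 824, 362 and 407 in the high nerves and at 78.9 to 134 in the low nerves. Gap43, a growth cone protein that Schwann cells can also make, was at 55.6, 39.9 and 27.5 against 8.25 to 18.4. Map1b and Mapt, microtubule proteins of axons, lay above all low nerves but missed the limit of 1 in cHet (0.98) and in cKO (0.93). For vesicles 16 of 25 genes were higher in all 3 and 23 lay above all low nerves, beside 3.48% and 8.55% of all genes. The medians were 3.59, 1.87 and 1.76, and 24 of the 25 reached the minimum mean over the low nerves. Snap25, a core protein of vesicle fusion, was at 207, 69.4 and 83.1 against 4.68 to 17.8, and Syt1, its calcium sensor, at 20.9, 13.0 and 12.1 against 0.314 to 2.20. Scg2, a granin of peptide granules, was at 53.4, 23.0 and 26.3 against 0.468 to 3.34, and the peptide precursor Vgf at 20.9, 7.64 and 6.72 against 0.117 to 1.06. Genes of small vesicles and of peptide granules thus stood apart in the same way. Sncg, gamma-synuclein, was at 1828, 1234 and 1205 against 823 to 1319 and overlapped between high and low nerves.

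Neuronal RNA-binding proteins followed, with 7 of 13 tested genes higher in all 3 genotypes, beside 3.48% of all genes. Of the 13, 12 reached the minimum mean over the low nerves. Rbfox3, known as the neuronal nuclear antigen NeuN, was at 32.1, 14.5 and 15.4 in the high nerves of control, cHet and cKO and at 0.444 to 2.64 in the low nerves. Elavl4, which stabilizes neuronal messages, was at 30.6, 18.6 and 16.5 against 0.297 to 3.25. Rbfox1, a splicing factor that muscle also makes, had differences of 2.81, 2.60 and 2.66, and its highest low value of 10.2 was in control nerve 1, the nerve with most muscle RNA. Ptbp2 and Nova1 were not higher, and Ptbp2 was at 72.0, 71.0 and 65.3 against 47.3 to 81.2. Of 19 channel genes tested 10 were higher in all 3, beside 3.48% of all genes, with list medians of 2.01, 1.06 and 1.65. Nothing is read from that share, since only 13 of the 19 reached the minimum mean over the low nerves. Kcnab2, a cytoplasmic subunit of potassium channels, was at 299.6, 139 and 133 against 7.72 to 27.7. Kcna1 and Kcna2, potassium channels of the juxtaparanode, were at 137, 114 and 92.8 against 83.3 to 151 and at 117, 111 and 103 against 89.8 to 134. Both overlapped fully, in contrast to the sodium channels of nociceptors.

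Motors of axonal transport and proteins of the node of Ranvier had smaller median differences than the lists of nociceptor and sensory transcription factor genes. Of the nociceptor and transcription factor lists only 9 of 15 and 6 of 10 tested genes reached the minimum mean over the low nerves. Of the motor and node lists 13 of 13 and 13 of 16 did, so that nothing is read from this order. Among 13 motor genes 1 was higher in all 3 genotypes, 7.69% against 3.48% of all genes, with a list median of 0.31 over the 3 genotypes. That gene was Dync1i1, a dynein intermediate chain of neurons, at 22.5, 11.5 and 11.02 in the high nerves of control, cHet and cKO and at 0.391 to 2.06 in the low nerves. Kif5a, a neuronal kinesin, was above all low nerves at 101, 59.8 and 57.6 against 23.4 to 36.2, while Kif1a, at 187, 161 and 149 against 134 to 197, overlapped. For axonal proteins of node, paranode and juxtaparanode 16 genes were tested. Of these, 3 were higher in all 3 genotypes and 9 lay above all low nerves, beside 3.48% and 8.55% of all genes. The 3 higher genes included Cntnap2 and Cntn2, the axonal adhesion protein of the juxtaparanode, which differed by 3.10, 3.06 and 2.49. Cntn1, the axonal contactin of the paranodal junction, was at 38.3, 15.8 and 13.2 against 3.404 to 9.22, with differences of 2.55, 0.81 and 1.71. Its partner Cntnap1 was at 14.9, 7.28 and 6.43 against 2.05 to 5.21, with differences of 1.73, 0.69 and 1.12. Both paranodal axonal genes thus lay above all low nerves, as 8.55% of all genes did, and both missed the limit of 1 in cHet. Nfasc, made by both axons and Schwann cells, was at 115, 139 and 93.9 against 87.1 to 214 and overlapped. Cadm3, an internodal adhesion protein of axons, was at 236, 192 and 145 against 129 to 252 and overlapped as well. Of 11 Schwann proteins of the node and paranode 1 passed, beside 3.48% of all genes. It was Epb41l3, which neurons also express, at 217, 96.1 and 101 against 25.1 to 47.8.

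Relative to Prph within the same library, the 3 high nerves resembled each other for nociceptor genes and differed for Nefh and Slc17a7. Calca stood at 106%, 92.0% and 107% of Prph in the high nerves of control, cHet and cKO, and Scn10a at 9.24%, 11.1% and 12.9%. Nefh stood at 58.6%, 30.8% and 42.5%, and Slc17a7 at 5.41%, 2.53% and 2.95%. Control nerve 2 was thus highest for the large-fibre genes and not for Scn10a. In the low nerves the same ratios fell apart. Calca was at 28.2% to 30.4% of Prph in control nerves 1 and 3 and cHet nerve 2, and at 84.7% to 106% in cHet nerve 3 and cKO nerves 1 and 2. Scn10a was at 0.205% to 1.09% of Prph in the first 3 of these nerves and at 2.29% to 9.89% in the other 3. Nefh was at 59.1% to 158% of Prph in the low nerves, above the 30.8% to 58.6% of the high nerves. The order of the low nerves differed by gene. In cKO nerve 2 Nefh was at 106% of Prph, beside 104% in control nerve 1, though its Calca was at 88.2%. Slc17a7 was at 1.66% to 10.5% of Prph in the low nerves, around the range of the high nerves. Over the 523 genes the median level was 13.6% of the mean of the 3 high nerves in cKO nerve 2 and 15.7% in control nerve 1, within 9.46% to 17.3% for all low nerves. The ratios share Prph, the gene of the rule, and cannot say which cells held the RNA.

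**Figure D3:**
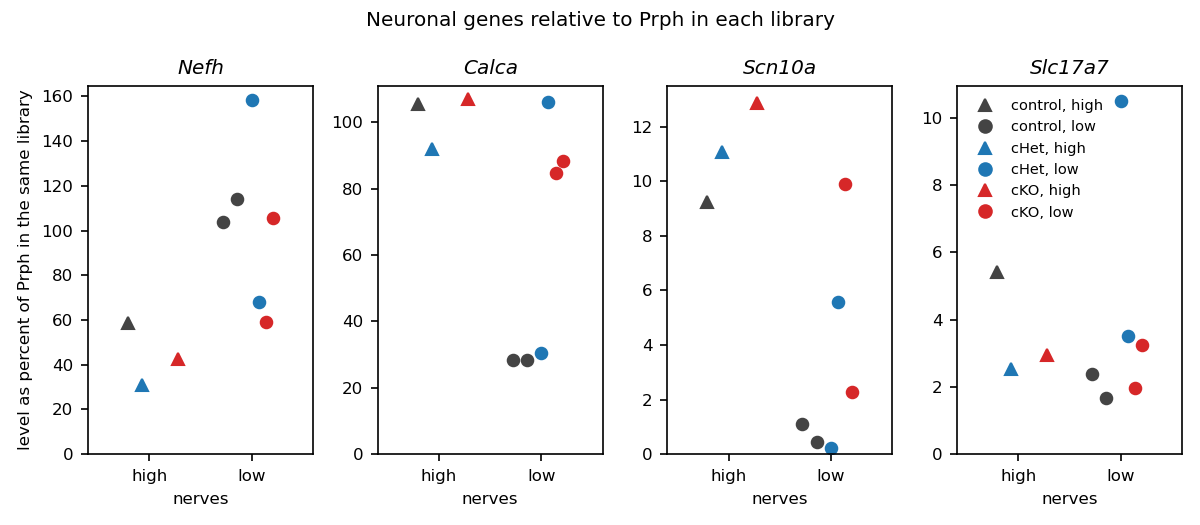
Level of 4 neuronal genes as a percent of Prph in the same library, one panel per gene, with high nerves left and low nerves right, triangles for high, circles for low and colours for genotype. Calca is at 92.0% to 107% in the high nerves and at 28.2% to 106% in the low nerves, and Nefh is at 30.8% to 58.6% and 59.1% to 158%.

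No listed gene of myelin, connective tissue or vessels was higher in all 3 genotypes. None of 16 genes of myelinating Schwann cells was higher or lower by 1 in all 3 genotypes, beside 3.48% and 0.02% of all genes. Their list medians were -0.14, -0.37 and -0.28 in control, cHet and cKO. Macrophage, fibroblast, perineurial, endothelial, and pericyte and smooth muscle lists held 0 genes that were higher in all 3 genotypes among 34 tested, beside 3.48% of all genes. None of these 5 lists had a median of one sign in all 3. In lists this short a count of 0 is near the share over all genes, and nothing is read from it. Of 4 genes of satellite glia 1 passed, beside 3.48% of all genes. It was Fabp7, a lipid carrier that Schwann cell precursors also make, at 239, 123 and 54.6 against 9.34 to 72.9, where 54.6 overlaps the low range. The summed values of that list were 341 to 553 in the high nerves and 306 to 455 in the low nerves. Oligodendrocyte and astrocyte lists held no gene that was higher in all 3, beside 3.48% of all genes, and nothing is read from that either. Their sums were 141 to 178 against 128 to 260.4 and 38.8 to 49.0 against 35.5 to 70.9. Mog, Opalin, Olig1, Olig2 and Ermn, which mark oligodendrocytes, had means below 1.

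Fat and muscle RNA varied between nerves on its own course, and its part in the results was not tested. The summed adipocyte markers were at 93.5, 515 and 391 in the high nerves of control, cHet and cKO and at 58.7 to 3021 in the low nerves, at 2095 in control nerve 1 and 3021 in control nerve 3. The summed skeletal muscle markers were at 67.6, 26.7 and 8679 in the high nerves and at 47.2 to 16579 in the low nerves, highest in control nerve 1. High cKO nerve 3 thus also had much muscle RNA, and the other high nerves had little. With control nerve 1 left out, 546 genes were higher in all 3 genotypes, and with cKO nerve 3 left out 647 were higher in the other 2 genotypes. Summed red cell genes were at 2577, 6712 and 8115 in the high nerves and at 1275 to 4066 in the low nerves.

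Few genes were lower in the high nerves. The 3 genes with a difference of -1 or below in all 3 genotypes were the predicted genes and pseudogenes Gm45313, Gm28330 and Eif3s6-ps2. Among genes with an established name the 10 lowest were Zbtb16, Npas3, Fastkd3, Gdf9, Hsd17b14, Ptp4a1, Spata48, Crb3, Acsm3 and Plekhs1, none of them past -1 in all 3. Zbtb16, a zinc finger factor that responds to steroid hormones, was at 3.22, 3.78 and 2.14 in the high nerves of control, cHet and cKO and at 4.60 to 17.2 in the low nerves. Hsd17b14, a steroid dehydrogenase, was at 58.3, 63.7 and 56.3 against 66.5 to 113, with differences of -0.57, -0.61 and -0.58. Both were below all low nerves. Ptp4a1 stands on 2 gene identifiers in the table, and the one meant here had a mean of 2.58, so that its value is uncertain.

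**Figure D4:**
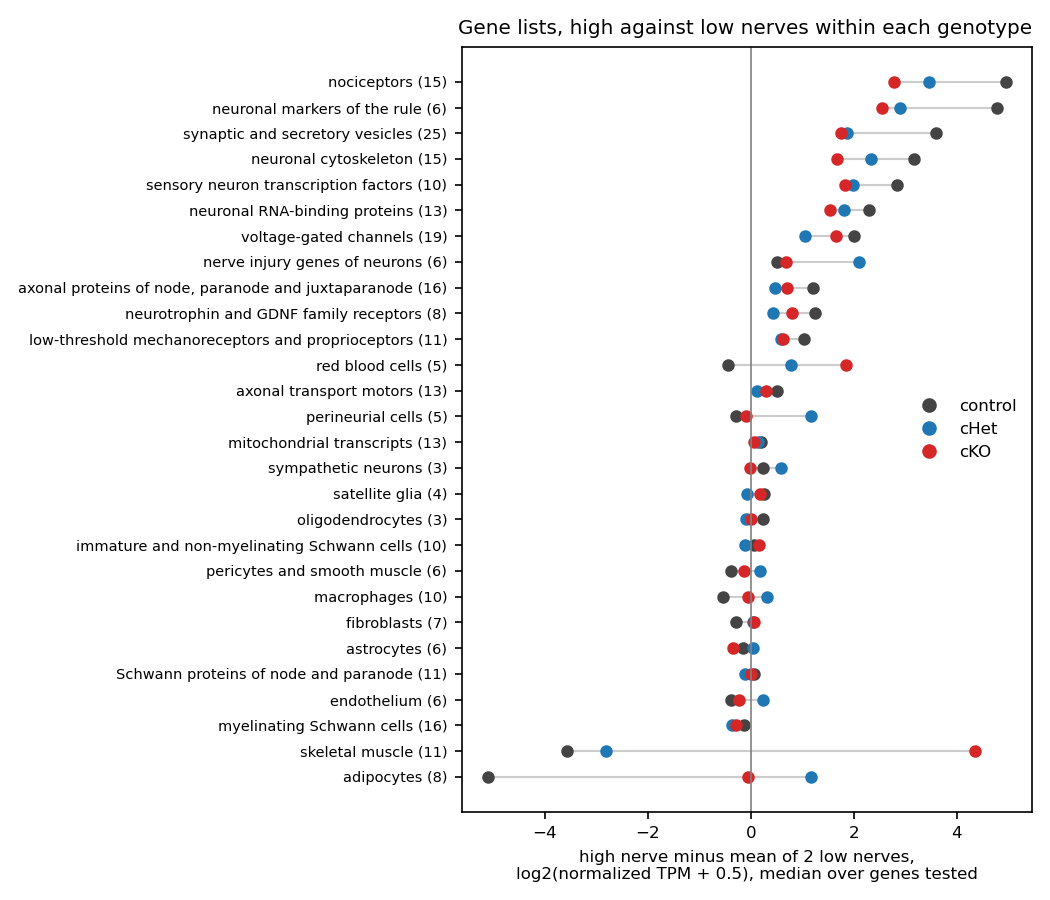
Median over the genes tested of the difference between the high nerve and the mean of its 2 low nerves, in log2(normalized TPM + 0.5), for each gene list with at least 3 genes tested (number in brackets), with a point per genotype. Nociceptor genes lie at 2.78 to 4.96 and myelinating Schwann cell genes at -0.37 to -0.14, while skeletal muscle runs from -3.57 to 4.36 and adipocytes from -5.11 to 1.17. Nothing is read from the order of the lists, since some hold genes that passed the minimum mean only through the high nerves.

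The rule did not use genotype, and each genotype held 1 high nerve, so that genotypes could be tested. Tardbp, the targeted gene, was at 103, 94.2 and 103 in cKO nerves 1, 2 and 3 and at 185, 194 and 217 in control nerves 1, 2 and 3. It did not follow neuronal RNA, with differences between high and low nerves of -0.05, -0.04 and 0.07 in control, cHet and cKO. In cKO relative to control its log2 fold change was -0.98 (standard error 0.09, adjusted p = 0.00219 from limma), and a two-sided exact permutation test gave p = 0.1, the smallest that 3 against 3 allows. Across all genes limma passed 235 between cKO and control (1.57%), of which 140 rose and 95 fell, and 49 to 176 when 1 library was left out, lowest without cKO nerve 1. Between cKO and cHet it passed 256 (1.71%), and 55 to 270 when 1 library was left out, lowest without cKO nerve 3. Between cHet and control it passed 0, with 408 genes at an unadjusted p under 0.05.

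The 523 genes were chosen for 1 nerve per genotype that stands above its mates, which builds a wide spread into every genotype. Their median standard error was 0.98 on the log2 scale, against 0.17 over all genes. With errors fixed so by the choice of genes, limma passed 0 of them in each of the 3 comparisons, with 1 gene at an unadjusted p under 0.05 in each, and nothing is read from that count. Prph was at 172 ± 271 (SD, n = 3) in control, 97.9 ± 122 (SD, n = 3) in cHet and 99.2 ± 112 (SD, n = 3) in cKO. In cKO relative to control its log2 fold change was 0.39, with a 95% interval of -3.07 to 3.86, so that no difference was detectable and large ones in either direction are within the interval. An exact permutation test of Prph between these genotypes gave p = 1, two-sided.

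A second model held high neuronal RNA as a term beside genotype. All genes passing limma then numbered 266 between cKO and control (1.77%) and 272 between cKO and cHet (1.81%), and of the former, 213 were also among the 235 without the term. Between cHet and control 0 genes passed limma with the term, with 509 at an unadjusted p under 0.05. For the 523 genes the term follows the same split of nerves that chose them, so that their median standard error falls by construction, to 0.37. Among them 1 passed between cKO and control, Frmpd1, a scaffold protein gene, and 1 between cKO and cHet, the predicted gene Gm2274, both named after their values were seen. Frmpd1 was at 13.7, 6.64 and 3.94 in the high nerves of control, cHet and cKO, and at 3.37 and 4.45 in low control nerves and 0.770 and 1.16 in low cKO nerves. In cKO relative to control its log2 fold change was -1.62 with a standard error of 0.23 and an adjusted p of 0.0180 from limma with the term, and 0.61 and 0.299 without it. The choice of genes bears on both errors, and without the high nerves its value was -1.59 with an adjusted p of 0.148 from limma.

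Paranodal axonal genes had lower mean values in cKO than in control nerves, with wide errors over all 9 nerves. Cntn1 averaged 16.9 ± 18.6 (SD, n = 3) in control, 11.2 ± 4.04 (SD, n = 3) in cHet and 6.87 ± 5.48 (SD, n = 3) in cKO. In cKO relative to control its log2 fold change was -0.94, with a standard error of 0.73 from genotype alone and of 0.31 with the term, and the adjusted p from limma was 0.676 and 0.215. Cntnap1 was at -0.75 with standard errors of 0.53 and 0.27 and adjusted p of 0.637 and 0.252 from limma. Neither passed under either model, and an exact permutation test gave p = 0.5 for each. With 1 library left out and genotype alone, the log2 fold change ran from -1.51 to -0.0894 for Cntn1 and from -1.12 to -0.172 for Cntnap1. Cadm3 passed in both, at -0.73 with adjusted p of 0.0376 and 0.0466 from limma. Without the 3 high nerves its value was -0.74 and its adjusted p from limma was 0.182. Besides Cadm3, the gene of the neuronal and axonal lists that passed between cKO and control was Ntrk3, at 31.8, 25.4 and 32.6 in cKO nerves 1, 2 and 3 against 45.0 to 46.6 in the control nerves (-0.61, adjusted p = 0.0326 from limma, and 0.176 without the high nerves). Both genes overlapped between high and low nerves, and neither was among the 523.

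Among the 6 low nerves alone, neuronal markers had higher values in cKO than in control nerves, and none of them passed limma. The median log2 fold change of the 6 markers between cKO and control was 1.18 without the high nerves and 0.40 with all 9 nerves, and for the nociceptor list it was 1.45 over 9 tested genes and 0.60 over 15. Calca was at 31.2 and 28.8 in low cKO nerves, at 4.198 and 44.8 in low cHet nerves and at 4.02 and 4.80 in low control nerves. Its log2 fold change was 2.64 with a 95% interval of 0.32 to 4.96 and an adjusted p of 0.379 from limma. Of 312 higher genes that could be tested in the low nerves 0 passed limma between cKO and control. An unadjusted p under 0.05 was found for 43 of these 312 and for 1682 of all 14720 genes in the same fit. Nothing is read from the 43. Over all 14720 genes tested, 15 passed (0.102%) between cKO and control, 15 (0.102%) between cKO and cHet, and 0 between cHet and control, where 583 had an unadjusted p under 0.05. Of the 15 genes between cKO and control, 14 were among the 235 from all 9 nerves, and all 234 of the 235 that could be tested kept their direction. This fit rests on 2 nerves per genotype.

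**Figure D5:**
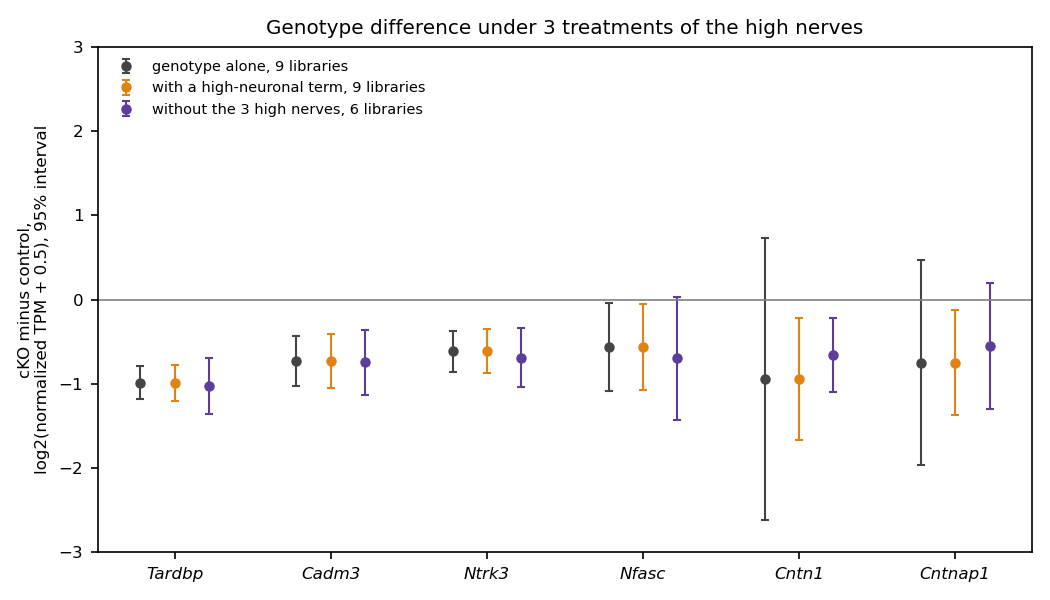
Difference between cKO and control in log2(normalized TPM + 0.5) with 95% intervals from limma for 6 genes, from genotype alone over 9 libraries, with a term for high neuronal RNA, and without the 3 high nerves. The interval of Cntn1 runs from -2.61 to 0.73 with genotype alone and from -1.66 to -0.22 with the term, while that of Tardbp stays below 0 in all 3. The intervals are not adjusted for the number of genes tested, and Cntn1 passed limma neither with genotype alone nor with the term.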

How the data were processed

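RNA was extracted with Trizol from flash-frozen sciatic nerves of 9 mice, made into TruSeq libraries and sequenced on a HiSeq4000, per the labels and the methods of the study. The authors deposited 1 table of normalized TPM, a signal per gene that is adjusted for transcript length, with totals per library of 934932 to 1158094. Per the submitters' processing notes the tools were kallisto 0.44.0 and sleuth 0.30.0 with GRCm38. Which annotation release, strand setting and scaling were used is not given in the sources used here. TPM keep no depth, so the depth of each library is unknown and no counting interval can be given.

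The table holds 36121 genes, 650 without a symbol and 32 symbols that stand on several genes. Groups came from sample titles. Nothing in the labels says more of a replicate than that it is another mouse, and p-values measure the spread between these mice. The members and the 30 gene lists with 323 entries were chosen with earlier results of these data known. Libraries with Prph above 100 were called high. Values were taken as log2(value + 0.5) for the 15014 genes with a mean of 1 or more, and each high library was compared with the mean of the other 2 libraries of its genotype. Genes were named by a fixed rule: the 25 with the largest difference in their weakest genotype, the 10 with the lowest, and members of the lists, some of which are not reported here. Genotypes were compared with limma 3.58.1 in R 4.3.3 (trended prior, Benjamini-Hochberg adjustment, threshold 0.05), from genotype alone and with a term for high neuronal RNA, and single genes with exact permutation tests. The steps were tested on simulated data. Python 3.11.15, numpy 2.4.6 and pandas 2.3.3 were used. Gene positions are from GENCODE on GRCm38 and promoters from RefSeq on GRCm38.p6.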

Additional observations from a re-analysis of the deposited data

Results flagged for a closer look

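Over the 6 low nerves Snurf stood at 25.5 in cHet nerve 3, against 0 to 2.97 in the other 5, a gap of 0.883 of the range. Chance marks about 1 in 20 groups by this measure.

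The adipocyte list differed between high and low nerves by a median of -5.11 in control, 1.17 in cHet and -0.048 in cKO on the log2 scale, so that control and cHet moved in opposite directions. The skeletal muscle list differed by -3.57 in control, -2.82 in cHet and 4.36 in cKO. The difference between genotypes was not tested for either list, since each genotype holds 1 high nerve.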

How the results depend on the processing

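The number of genes higher in all 3 genotypes was 572 and 438 with pseudocounts of 0.1 and 1, 604 with no filter on low values, 491 with median-of-ratios scaling, 225 with a mean of at least 5, 174 at a difference of 2 and 1283 when each high nerve had only to exceed every low nerve. The number lower was 7, 1, 5, 4, 0, 0 and 181 under the same settings. At a mean of at least 5 the median difference of sensory transcription factors was 0.67 and that of axonal node proteins 0.0931, because genes of low level leave the lists. Leaving out each library in turn gave 514 to 647 higher and 3 to 54 lower genes, with 11 lower without control nerve 1, 33 without control nerve 2, 32 without cHet nerve 1, 5 without cKO nerve 1 and 54 without cKO nerve 3. The medians of the 10 lists followed this way kept their direction, for nociceptors at 3.14 to 4.21 and for myelinating Schwann cells at -0.34 to -0.20.

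With limma, genes passing between cKO and control numbered 49 to 176 when 1 library was left out, lowest without cKO nerve 1, with 65 without cKO nerve 3, 97 without cKO nerve 2, 108 without cHet nerve 3, 117 without control nerve 3, 136 without control nerve 1, 145 without cHet nerve 2 and 151 without control nerve 2. Between cKO and cHet they numbered 55 to 270, with 55 without cKO nerve 3, 61 without cHet nerve 2 and 61 without cHet nerve 3, 63 without cKO nerve 1, 98 without cKO nerve 2 and 132 without cHet nerve 1, and between cHet and control 0 to 0. With no filter 2 genes passed between cHet and control and 168 between cKO and cHet. Without the 3 high nerves 15 passed in either comparison with cKO, and Tardbp was at -1.02 with an adjusted p of 0.0864 from limma. These fits hold fewer samples. The adjusted p of Cadm3 between cKO and control from limma was 0.0653 with no filter, 0.0650 with median-of-ratios scaling and up to 0.150 with 1 library left out. Cacna1b, which passed in none of these fits, changed sign between cKO and control, to 1.003 without control nerve 2, 0.43 without cKO nerve 1 and 0.42 without cKO nerve 2, within -1.08 to 1.003 over all such fits; the cause was not tested. No paired analysis was possible because the labels give each mouse an ID of its own and tie no mice of different genotypes to a litter or set, and the nerve numbers follow only the order of deposit. With 3 nerves per genotype and 1 of them high, small genotype differences of neuronal genes are beyond reach.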

Other observations

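Genes that neurons raise after nerve injury were not uniformly higher in the high nerves. Of 6 tested genes 2 were higher in all 3 genotypes, beside 3.48% of all genes, and 4 of the 6 reached the minimum mean over the low nerves. Gal, a neuropeptide, was at 7.39, 4.33 and 3.74 in the high nerves of control, cHet and cKO and at 0.523 to 1.23 in the low nerves, and Gap43 was the other. Atf3, a stress-induced transcription factor, was at 13.2, 20.2 and 11.4 against 12.2 to 17.3 and overlapped.

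Receptors for neurotrophins and GDNF family ligands split by gene. Of 8 tested, 2 were higher in all 3 genotypes, Ret among them, beside 3.48% of all genes, and 5 lay above all low nerves, beside 8.55%. Ngfr, the low-affinity receptor of neurons and immature Schwann cells, was at 68.0, 42.4 and 46.4 in the high nerves against 18.5 to 27.6.

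Among the 6 low nerves, cHet nerve 3 held the highest value for 181 of the 523 higher genes (34.6%), cKO nerve 1 for 127 and control nerve 1 for 116, against 21 for control nerve 3.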
